A study of Mus musculus with 12 samples.

Results

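The RNA of 10 genes that encode histone acetyltransferases and histone deacetylases was followed in mouse sciatic dorsal root ganglia (DRG). The genes were chosen by name, and all 10 were found among the 44345 gene names of the count table and all 10 passed the filter on low counts, which left 16238 genes. They are the 4 acetyltransferases Crebbp, Ep300, Kat2a and Kat2b, the 3 class I deacetylases Hdac1, Hdac2 and Hdac3, and the 3 class IIa deacetylases Hdac4, Hdac5 and Hdac9. C57BL/6 mice of 5 to 8 weeks were kept for 10 days in standard housing (SH) or in an enriched environment (EE), which offers larger cages with more animals, a running wheel and changing objects. They then had sham surgery or sciatic nerve axotomy (SNA), a cut of the nerve, 24 h before collection of the ganglia. There were 3 samples in each of the groups named SH Sham and SH SNA for standard housing, and EE Sham and EE SNA for enrichment. Every sample pooled the ganglia of 2 mice, so a group stands for 6 mice and the spread between mice was averaged within samples. EE Sham was an earlier dataset, and a batch that came with it cannot be told apart from housing in the comparisons that use it. The comparisons ask whether axotomy, enrichment or both change the RNA of these enzymes.

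Histone acetyltransferases move an acetyl group from acetyl-CoA to lysines of histone tails, which loosens chromatin and creates docking sites for bromodomain proteins, and deacetylases take it off again. Crebbp (CBP) and Ep300 (p300) are paired coactivators recruited by transcription factors such as CREB, AP-1 and STAT3. Kat2a (GCN5) and Kat2b (PCAF) are alternative catalytic subunits of the SAGA and ATAC complexes. Hdac1 and Hdac2 work in the Sin3, NuRD and CoREST corepressors and Hdac3 in the NCoR and SMRT complexes, whereas the class IIa enzymes shuttle between nucleus and cytoplasm, bind MEF2 factors and are exported after phosphorylation by calcium-dependent kinases. In sensory neurons, histone acetylation is known for its part in the response to peripheral nerve injury and in axon regeneration. The values here are RNA of whole ganglia, so the amount, the location and the activity of the proteins were not measured.

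On the GRCm38 genome (GENCODE M21), the acetyltransferases lie at chr16:4081328-4213997 on the minus strand (Crebbp), chr15:81585351-81652077 on the plus strand (Ep300), chr11:100704746-100712465 on the minus strand (Kat2a) and chr17:53566861-53672720 on the plus strand (Kat2b). The class I genes lie at chr4:129516104-129542713 on the minus strand (Hdac1), chr10:36974544-37001889 on the plus strand (Hdac2) and chr18:37935844-37955016 on the minus strand (Hdac3). The class IIa genes are all on minus strands, at chr1:91928779-92195699 (Hdac4), chr11:102194432-102230166 (Hdac5) and chr12:34047580-34917095 (Hdac9). Reads were assigned to exons of these genes. The exons of Hdac4 share 3536 of 15813 bases with Gm26720, a long noncoding RNA of the opposite strand, and whether the counting used strand is not given in the sources used here, so the count of Hdac4 may hold reads of Gm26720. Exons of Ep300 and Hdac5 share 54 and 111 bases with the microRNA genes Gm23880 and Mir8101, and exons of the other 7 share no base with another gene.

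Between 11343579 and 22871460 reads per sample were assigned to genes, and the 10 genes together held 5457 to 11033 of them. The markers of sensory neurons summed to 17020 to 20830 CPM (read counts scaled to the library size) across the samples and those of Schwann cells to 6542 to 12250, and no gene of these lists was at 0 throughout a group. All 6 injury response genes rose with SNA averaged over both housings, with log2 fold changes of 1.92 for Atf3, 1.91 for Sprr1a, 1.33 for Sox11, 1.08 for Gal, 0.68 for Jun and 0.35 for Gap43. The samples described below thus differed in these genes by their labels of sham and axotomy. The 6 genes were chosen with earlier results of these data known, so their rise is no independent check of the labels. Over all genes, 10.8% were higher in this contrast at an adjusted P of 0.05 (edgeR).

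Levels of the 10 genes were compared per length as FPKM, reads scaled by gene length and library total, from the deposited table. In SH Sham, Hdac2 had the highest level at 28.8 ± 0.558 FPKM (SD, n = 3), followed by Hdac3 at 17.2 ± 0.323. Kat2a at 13.03 ± 0.599, Hdac1 at 10.0 ± 0.856 and Kat2b at 8.81 ± 0.359 FPKM came next. Hdac9 at 7.70 ± 0.434 and Hdac4 at 7.18 ± 0.272 FPKM were the only neighbours in this order whose samples overlapped. Hdac5 at 5.57 ± 0.411, Ep300 at 3.96 ± 0.328 and Crebbp at 2.70 ± 0.144 FPKM were lowest. By the lengths behind these FPKM, the class I deacetylases stood in the upper part of the order and the large coactivators Ep300 and Crebbp at its end. Merged exons of GENCODE M21 are longer, at 15813 bases for Hdac4, 14665 for Hdac9, 14273 for Ep300 and 13540 for Crebbp. The order among Hdac4, Hdac9, Ep300 and Crebbp thus depends on the length used. Hdac4 and Hdac9 have 2 lines each in the FPKM table, with lengths of 3.96 and 2.41 kb for Hdac4 and 4.45 and 5.96 kb for Hdac9, and the lines of the Ensembl genes of 3.96 and 4.45 kb were used, so the place of these genes in the order depends on that choice.

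**Figure D1:**
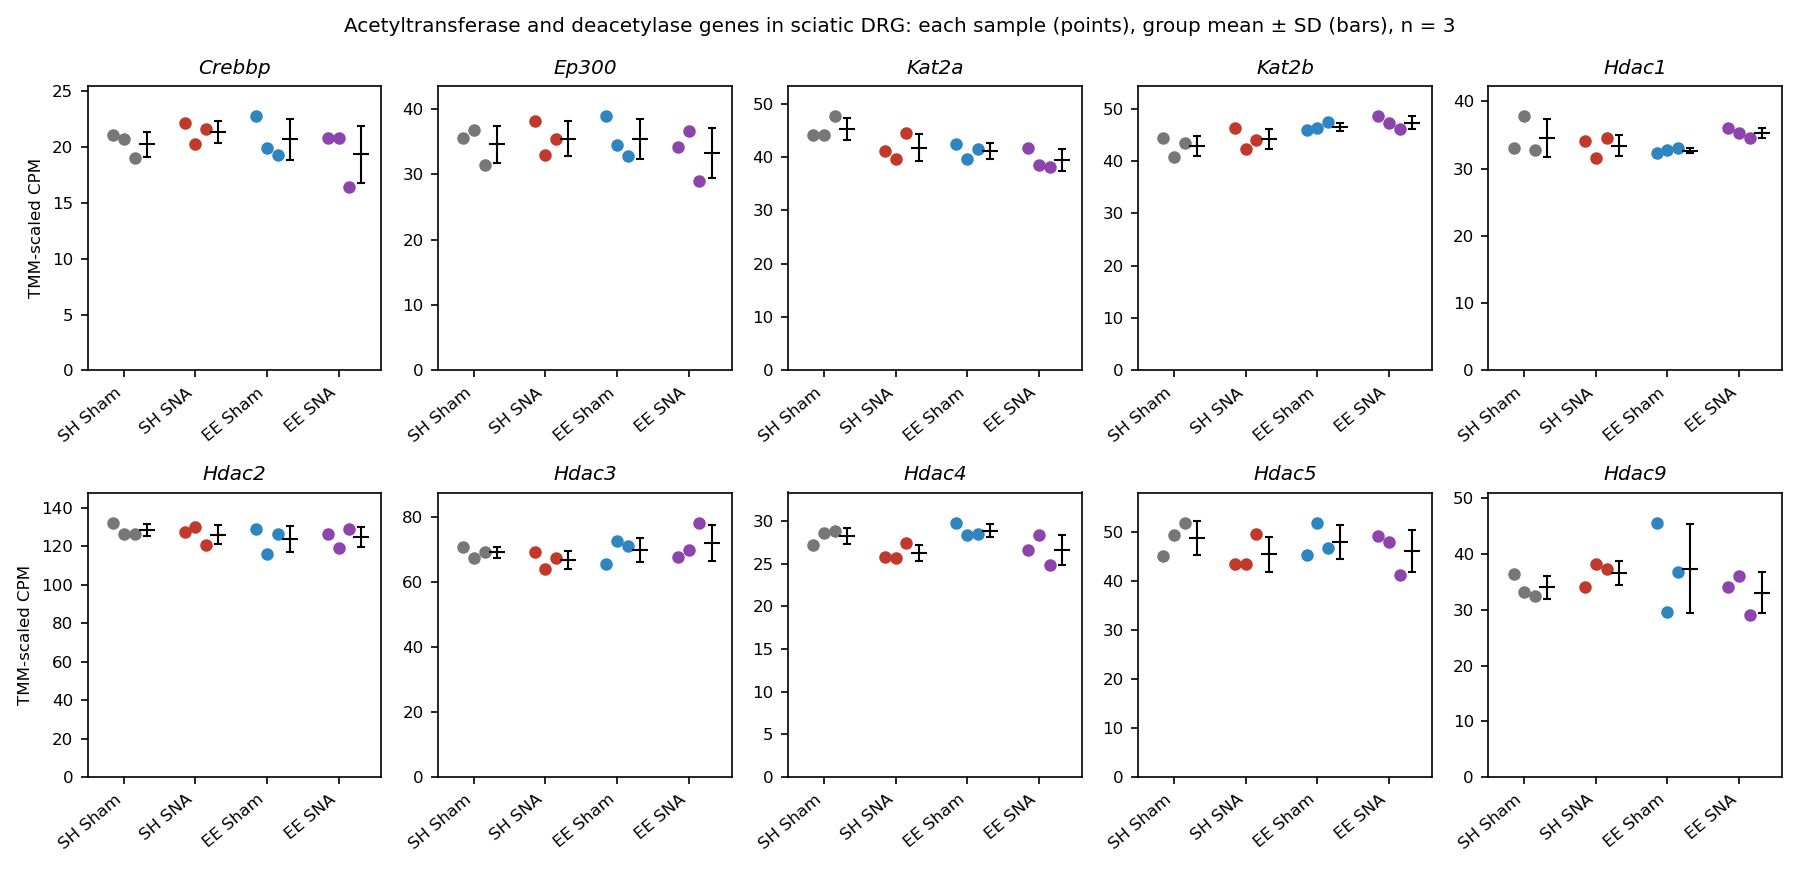
TMM-scaled CPM (y axis from 0) of each of the 10 genes in the 4 groups; points are samples, and bars are the group mean ± SD of 3 samples. Group means differ little within each gene, and Hdac9 spreads from 29.7 to 45.6 within EE Sham. Kat2a and Kat2b are the genes whose EE SNA samples do not overlap with their SH Sham samples, as for 31.8% of all genes.

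Across samples, values are given below as CPM scaled by TMM, in the order of replicates 1 to 3. Crebbp, the CREB-binding coactivator, was at 21.1, 20.7 and 18.99 CPM in SH Sham, 22.2, 20.3 and 21.7 in SH SNA, 22.7, 19.96 and 19.3 in EE Sham and 20.8, 20.8 and 16.4 in EE SNA. Its paralog Ep300 was at 35.6, 36.8 and 31.4 CPM in SH Sham, 38.1, 32.9 and 35.3 in SH SNA, 38.8, 34.5 and 32.8 in EE Sham and 34.2, 36.5 and 29.0 in EE SNA. In both genes all groups overlapped, the highest sample was EE Sham replicate 1 and the lowest was EE SNA replicate 3. After SNA the log2 fold change was 0.079 (95% CI −0.11 to 0.27) for Crebbp and 0.038 (−0.15 to 0.23) for Ep300 in SH, and −0.094 (−0.34 to 0.15) and −0.087 (−0.30 to 0.13) in EE. EE SNA against SH SNA gave −0.14 (−0.37 to 0.090) for Crebbp, which became −0.039 without EE SNA replicate 3, and −0.088 (−0.30 to 0.12) for Ep300, which became −0.0011. EE Sham against SH Sham gave 0.025 (−0.17 to 0.22) and 0.030 (−0.16 to 0.21). None of these differences passed either threshold. The ratio of Crebbp to Ep300 CPM stayed between 0.563 and 0.617 in all 12 samples, and the log2 CPM of both genes had a Pearson r of 0.93 over these samples, which share the library effects described further on.

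Kat2a and Kat2b were the members with an unadjusted P-value under 0.05, with values of opposite sign, and neither passed the adjusted threshold. In EE SNA against SH Sham, 27.2% of all genes had such a P-value, and in the averaged housing effect 4.54%. Groups did not overlap for 31.8% of all genes in EE SNA against SH Sham and for 7.61% in EE Sham against SH Sham. The difference between both genes was not tested. Kat2a was at 44.1, 44.1 and 47.6 CPM in SH Sham, 41.2, 39.5 and 44.6 in SH SNA, 42.4, 39.5 and 41.6 in EE Sham and 41.7, 38.4 and 38.1 in EE SNA. Every EE Sham and EE SNA sample was below every SH Sham sample, and SH SNA replicate 3 lay above the lowest SH Sham sample. Kat2b was at 44.5, 40.7 and 43.4 CPM in SH Sham, 46.3, 42.3 and 44.0 in SH SNA, 45.9, 46.2 and 47.4 in EE Sham and 48.5, 47.3 and 46.1 in EE SNA. Every EE Sham and EE SNA sample was above every SH Sham sample, and SH SNA overlapped with SH Sham. In EE SNA against SH Sham, Kat2a had a log2 fold change of −0.20 (SE 0.067, 95% CI −0.35 to −0.058), 0.868-fold, with an unadjusted P of 0.00994 and an adjusted P of 0.0677 in edgeR's quasi-likelihood test. Kat2b had 0.14 (SE 0.064, 95% CI 0.0013 to 0.28), 1.10-fold, with an unadjusted P of 0.0483 and an adjusted P of 0.180 in the same test. The Kat2a difference kept an unadjusted P under 0.05 in all 16 alternative fits (0.00465 to 0.0444) and its adjusted P ran from 0.042 to 0.209, whereas Kat2b kept it in 4 of 16 (0.0313 to 0.179) and lost it without SH Sham replicate 2 or 3 or EE SNA replicate 1 or 2.

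The other comparisons split these differences by housing and surgery. EE Sham against SH Sham gave −0.14 (−0.29 to 0.014) for Kat2a and 0.12 (−0.033 to 0.27) for Kat2b. EE SNA against SH SNA gave −0.086 (−0.25 to 0.078) and 0.098 (−0.048 to 0.24). SH SNA against SH Sham gave −0.11 (−0.27 to 0.041) and 0.047 (−0.10 to 0.20), and EE SNA against EE Sham −0.071 (−0.23 to 0.083) and 0.017 (−0.12 to 0.16). No interval of these 4 comparisons left out 0. The samples of every group enter more than 1 of these comparisons, so their values are not independent. Averaged over surgery, the housing effect was −0.11 for Kat2a (95% CI −0.21 to −0.010, unadjusted P 0.0332, adjusted P 0.9998, edgeR) and 0.11 for Kat2b (95% CI 0.017 to 0.20, unadjusted P 0.0233, adjusted P 0.9998, edgeR). The effect of surgery averaged over housing was −0.090 (−0.19 to 0.012) and 0.034 (−0.057 to 0.13). The ratio of Kat2a to Kat2b CPM was 0.992 to 1.10 in SH Sham, 0.891 to 1.01 in SH SNA, 0.856 to 0.923 in EE Sham and 0.812 to 0.861 in EE SNA. The 6 EE samples had less Kat2a than Kat2b by this count, which is not divided by gene length. So did SH SNA samples at ratios of 0.891 and 0.934 and an SH Sham sample at 0.992.

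**Figure D2:**
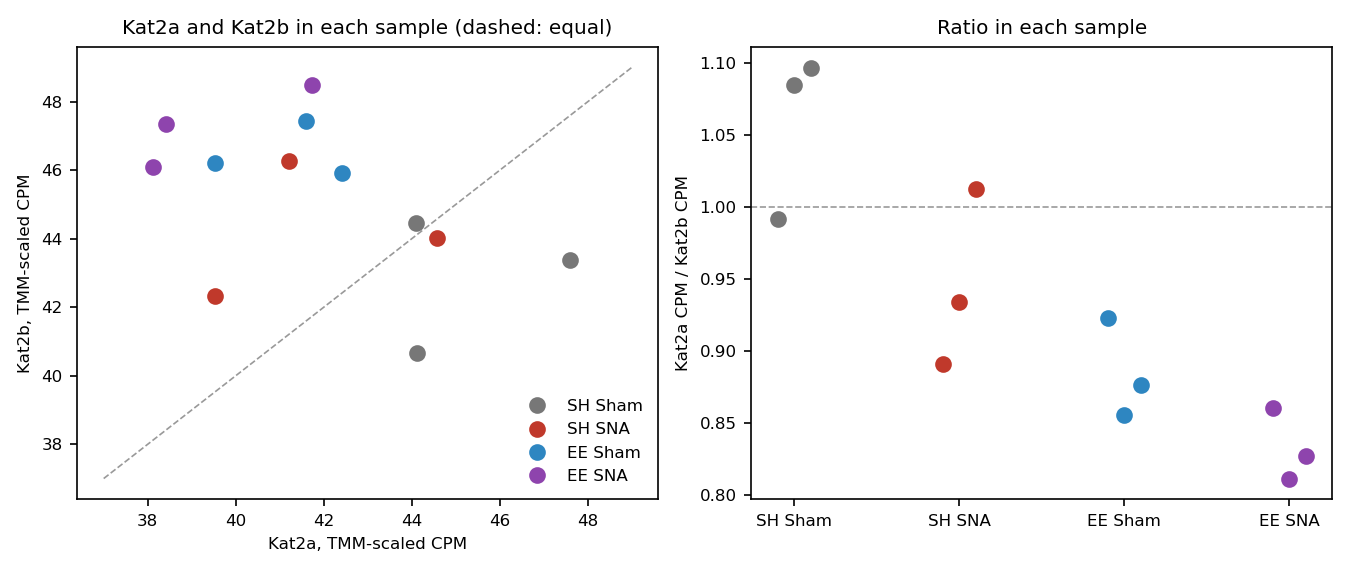
Left, Kat2a (x axis) against Kat2b (y axis) in TMM-scaled CPM, 1 point per sample, with the dashed line where both are equal; right, the ratio of the 2 values in each sample by group. The SH Sham samples have ratios of 0.992 to 1.10 and the EE SNA samples of 0.812 to 0.861.

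The bases before the start of these paralogs are shown because they are the pair with unadjusted P-values under 0.05. Both are from RefSeq on GRCm38.p6, 250 bases that end just before the annotated start and read 5′ to 3′ on the strand of the gene. Capitals mark a CCAAT box, searched as CCAAT on both strands. The last part of the Kat2b window overlaps the first exon of another annotated transcript of that gene. The marked box lies downstream of the GENCODE start of Kat2b at chr17:53566861.
Kat2a at chr11:100712468-100712717, minus strand: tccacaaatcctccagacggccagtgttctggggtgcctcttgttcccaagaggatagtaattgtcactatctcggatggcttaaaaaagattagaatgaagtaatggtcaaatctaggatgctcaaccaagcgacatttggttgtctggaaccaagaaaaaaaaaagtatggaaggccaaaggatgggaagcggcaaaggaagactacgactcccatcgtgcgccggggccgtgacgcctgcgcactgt
Kat2b at chr17:53566721-53566970, plus strand: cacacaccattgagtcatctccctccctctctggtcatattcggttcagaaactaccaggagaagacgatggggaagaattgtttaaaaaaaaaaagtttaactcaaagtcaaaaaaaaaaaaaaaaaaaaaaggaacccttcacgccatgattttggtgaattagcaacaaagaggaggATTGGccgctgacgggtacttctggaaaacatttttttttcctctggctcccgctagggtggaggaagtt
Kat2a has 48.8% GC and 11 CpG in its window and Kat2b 40.8% and 6, where the median of 32851 mouse promoters of that length is 52.4% and 6. The cyclic AMP response element TGACGTCA and the GC box GGGCGG, searched on both strands, were in neither window. TGACGTCA is found in 1.55%, GGGCGG in 32.7% and CCAAT in 33.9% of all these windows. RefSeq windows were matched for 8 of the 10 genes, 10 windows in all because Kat2b and Hdac9 have 2 each. GGGCGG was in 5 of the 10 (Crebbp, Ep300, Hdac2, Hdac4 and Hdac5), CCAAT in 3 and TGACGTCA in 0. Their GC content ran from 40.8% at Kat2b to 84% at Crebbp. No measurement of this series bears on binding at these sites.

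Among the class I deacetylases, no difference passed a threshold in any comparison. Hdac1, a catalytic subunit of Sin3, NuRD and CoREST, was at 33.0, 37.7 and 32.8 CPM in SH Sham, 34.0, 31.6 and 34.5 in SH SNA, 32.3, 32.7 and 33.0 in EE Sham and 36.0, 35.3 and 34.6 in EE SNA. The EE SNA samples lay above all EE Sham samples and, by a narrow margin, above all SH SNA samples, whereas SH Sham spanned both. Its log2 fold change was 0.10 (95% CI −0.048 to 0.25) in EE SNA against EE Sham and 0.079 (−0.080 to 0.24) in EE SNA against SH SNA. Hdac2, its partner in the same complexes, was at 132, 127 and 127 CPM in SH Sham, 127, 130.3 and 121 in SH SNA, 129, 116 and 126 in EE Sham and 127, 119 and 129 in EE SNA. It varied least of the 10 genes, with a coefficient of variation of 3.79% over the 12 samples. The SNA effect averaged over housing was −0.0073 (−0.096 to 0.081) for Hdac2 and 0.032 (−0.075 to 0.14) for Hdac1. Hdac3, the catalytic subunit of the NCoR and SMRT complexes, was at 70.8, 67.4 and 69.3 CPM in SH Sham, 69.3, 64.0 and 67.3 in SH SNA, 65.6, 72.5 and 71.2 in EE Sham and 67.7, 69.9 and 78.2 in EE SNA. Its groups overlapped, and EE SNA replicate 3 was its highest sample. EE SNA against SH SNA gave 0.11 (−0.045 to 0.26), and 0.043 without that sample. The SNA effect of Hdac3 averaged over housing was −0.0037 (−0.10 to 0.094).

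No difference of the 3 class IIa deacetylases passed a threshold after SNA. In SH SNA against SH Sham the log2 fold change was −0.10 for Hdac4, −0.098 for Hdac5 and 0.11 for Hdac9. Hdac4 was at 27.2, 28.6 and 28.9 CPM in SH Sham, 25.8, 25.7 and 27.4 in SH SNA, 29.8, 28.4 and 28.5 in EE Sham and 26.6, 28.4 and 24.8 in EE SNA. In each housing, 2 of the 3 SNA samples were below all sham samples and the third overlapped with them. The SNA effect averaged over housing was −0.11 for Hdac4 (SE 0.053, 95% CI −0.22 to 0.0046, unadjusted P 0.0590, adjusted P 0.164, edgeR), which was the largest absolute value of the 10 genes in that contrast, and its unadjusted P ran from 0.0297 to 0.127 over 21 alternative fits. Hdac5, which is exported from the nucleus of injured sensory neurons, was at 45.2, 49.4 and 51.9 CPM in SH Sham, 43.4, 43.5 and 49.6 in SH SNA, 45.3, 51.9 and 46.9 in EE Sham and 49.3, 48.0 and 41.3 in EE SNA. All groups of Hdac5 overlapped, with an averaged SNA effect of −0.078 (−0.20 to 0.047). The whole ganglion was sequenced, so fewer cells of a type and less RNA per cell cannot be told apart for any of these values.

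Hdac9 was the least even of the 10 genes, with a coefficient of variation of 12.4% over the 12 samples. It was at 36.4, 33.2 and 32.4 CPM in SH Sham, 34.1, 38.2 and 37.4 in SH SNA, 45.6, 29.7 and 36.8 in EE Sham and 34.1, 36.1 and 29.0 in EE SNA. EE Sham alone held the highest and nearly the lowest sample. After SNA the log2 fold change was 0.11 (−0.066 to 0.28) in SH and −0.17 (−0.46 to 0.12) in EE. The test of the difference between these, the interaction of housing and surgery, gave −0.27 (95% CI −0.63 to 0.095, unadjusted P 0.137, edgeR), the widest interval of the 10 genes. The value of Hdac9 depended on which EE Sham library was kept. With replicate 2 of EE Sham left out, the low sample, the interaction was −0.41 (unadjusted P 0.0115, adjusted P 0.922, edgeR) and EE Sham against SH Sham 0.27 (unadjusted P 0.0140, adjusted P 0.907, edgeR), and EE SNA against EE Sham was −0.31 (unadjusted P 0.0192, adjusted P 0.123, edgeR). Without EE Sham replicate 1, the high sample, the interaction was −0.11, EE Sham against SH Sham −0.032 and EE SNA against EE Sham −0.010, with no unadjusted P under 0.05.

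Of the 10 genes, 0 were called by edgeR at an adjusted P of 0.05 in any of the 8 contrasts, and 0 by DESeq2 or by limma on FPKM. Over all 16238 genes, the share called was 11.2% when SH SNA was compared with SH Sham, and 12.5% and 4.83% when EE SNA was compared with SH Sham and with EE Sham. It was 0.00616% when EE Sham was compared with SH Sham, and 0% when EE SNA was compared with SH SNA, in the interaction and in the averaged housing effect. For the SNA effect averaged over housing it was 21.1%, made up of 10.8% higher and 10.3% lower. At an unadjusted P of 0.05, Kat2a and Kat2b were called in EE SNA against SH Sham, 2 of 10 genes where 27.2% of all genes were called, and in the averaged housing effect, 2 of 10 where 4.54% were called. The count was 0 in SH SNA against SH Sham (background 25.2%), EE SNA against EE Sham (20.6%), the averaged SNA effect (34.2%), EE Sham against SH Sham (2.97%), EE SNA against SH SNA (4.1%) and the interaction (2.61%). When the replicate number entered the model as a block, 847 genes in place of 483 were called in EE Sham against SH Sham at the unadjusted threshold and 29 in place of 1 at the adjusted threshold, and 0 of the 10 genes at either. Groups did not overlap for 2 of the 10 genes in EE SNA against SH Sham (Kat2a and Kat2b, background 31.8%) and for the same 2 in EE Sham against SH Sham (7.61%). They did not overlap for Hdac1 in EE SNA against SH SNA (10.4%) and in EE SNA against EE Sham (25.8%), and for 0 genes in SH SNA against SH Sham (29.4%).

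The sizes bound what the test could have missed. The median absolute log2 fold change of the averaged SNA effect was 0.032 over the 10 genes and 0.12 over all genes tested, and in the averaged housing effect 0.031 and 0.054. In EE SNA against SH SNA it was larger over the 10 genes, at 0.087 against 0.075, and in the other 5 contrasts it was smaller over the 10 genes. These medians were not matched for level, and the 10 genes stood at percentiles 51.7 to 89.3 of CPM among all genes tested. Signed medians were −0.015 over the 10 genes and 0.0070 over all genes for the averaged SNA effect. The 95% intervals of the averaged SNA effect ran at most from −0.22 (Hdac4) to 0.15 (Hdac9) on the log2 scale. In the comparisons of 2 groups, the lowest bound was −0.46 (Hdac9, EE SNA against EE Sham) and the highest 0.38 (Hdac9, EE Sham against SH Sham), which is 0.728-fold and 1.30-fold. A change within these bounds may have gone undetected with 3 samples a group.

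**Figure D3:**
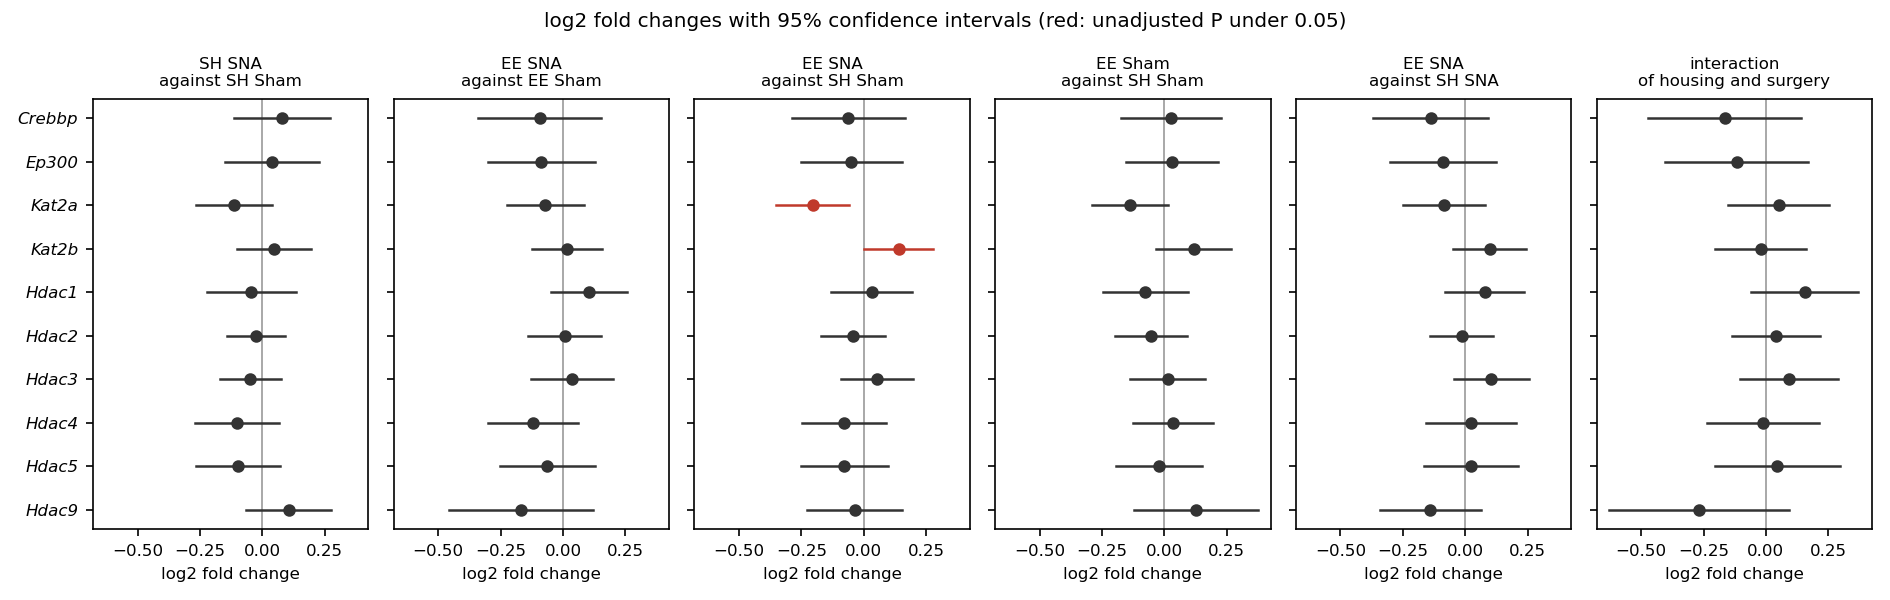
log2 fold changes (x axis, points) with 95% confidence intervals (lines) of the 10 genes in 5 comparisons of 2 groups and in the interaction, from edgeR's quasi-likelihood fit; red marks an unadjusted P under 0.05. Kat2a at −0.20 and Kat2b at 0.14 in EE SNA against SH Sham are the red values, and the lines of Hdac9 are the widest.

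The spread of the genes over the 12 samples was set against that of other genes. Coefficients of variation ran from 3.79% for Hdac2 to 12.4% for Hdac9, with 11.0% for the median gene tested, and 8 of the 10 were below the median of genes at a like level (within 0.5 on the log2 scale). A pair of libraries held most of the extreme values. EE SNA replicate 3 was the lowest sample for 6 genes (Crebbp, Ep300, Kat2a, Hdac4, Hdac5 and Hdac9) and the highest for Hdac3, and EE Sham replicate 1 was the highest for 4 (Crebbp, Ep300, Hdac4 and Hdac9). EE SNA replicate 3 also had the highest marker sums of the 12 samples for neutrophils (594 CPM), red blood cells (595), macrophages (153) and Schwann cells (12250). The same held for lymphocytes, fibroblasts and endothelium, but not for sensory neurons, satellite glia or skeletal muscle. The part of this in the values of the 10 genes was not tested. Both libraries also differed from the others in long and short genes overall. Relative to the mean of the 12 samples, genes over 7 kb had a median log2 deviation of 0.11 in EE Sham replicate 1 and −0.077 in EE SNA replicate 3, and genes under 1 kb −0.12 and 0.093, while the other 10 libraries stayed within −0.044 and 0.052 in these classes. Gene lengths here and in the length offsets are those implied by the deposited counts and FPKM. Ep300 (8.80 kb) deviated by 0.17 in EE Sham replicate 1 and −0.25 in EE SNA replicate 3, and Crebbp (7.55 kb) by 0.16 and −0.31. Hdac5 (8.83 kb) deviated by −0.054 and −0.19 and Hdac9 (4.45 kb) by 0.38 and −0.27. Merged exons of GENCODE M21 are longer for Hdac9 (14665 bases), Hdac4 (15813), Ep300 (14273) and Crebbp (13540). The place of Hdac9 and Hdac4 by length thus depends on the length used. The part of gene length in the values of the 10 genes was not tested in each library, and with offsets for gene length the calls of Kat2a and Kat2b at the unadjusted threshold in EE SNA against SH Sham were kept.

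**Figure D4:**
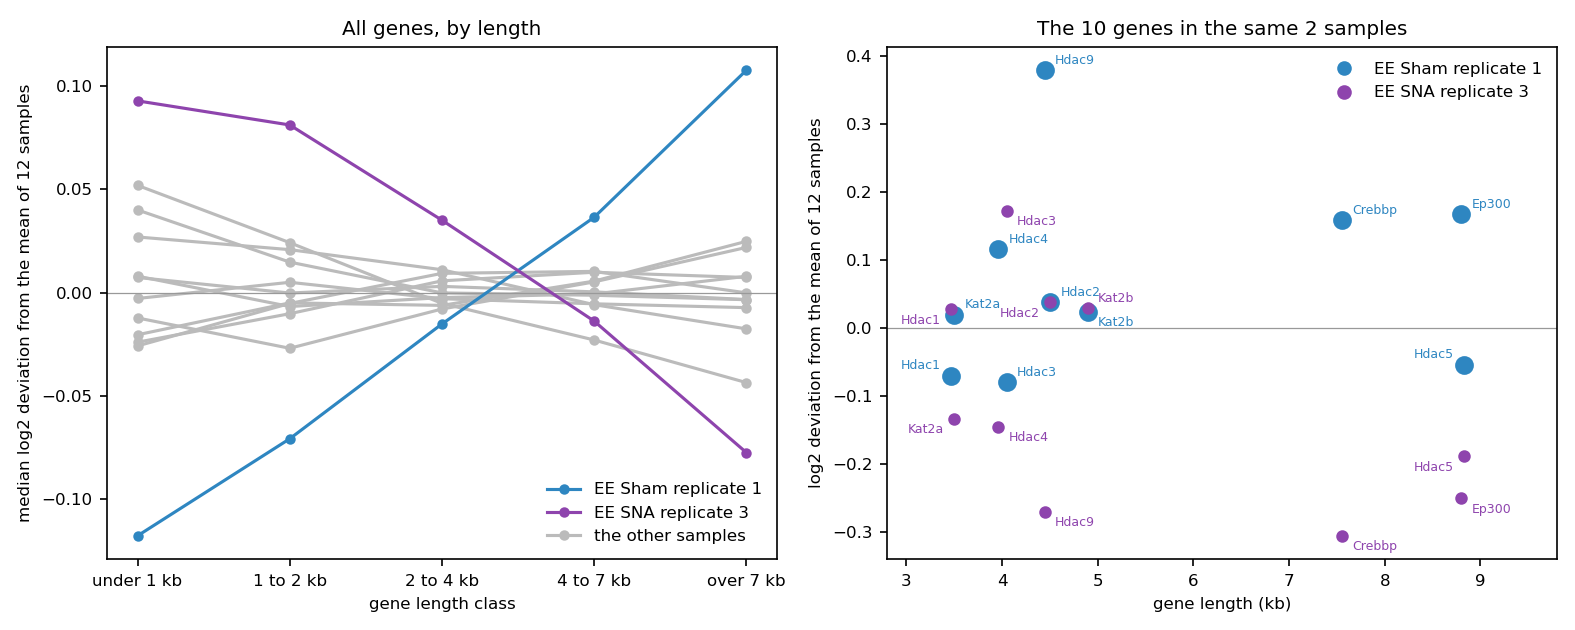
Left, median log2 deviation from the mean of the 12 samples (y axis) for genes of 5 length classes, 1 line per sample; right, the same deviation of the 10 genes against their length in EE Sham replicate 1 and EE SNA replicate 3. These 2 libraries run in opposite directions with gene length, reaching 0.11 and −0.077 over 7 kb. Lengths are those implied by the deposited counts and FPKM.

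By a rule that took the members with the largest averaged SNA effect, the genes most like Hdac4 and Kat2a over the 12 samples were listed by Pearson r of log2 CPM. For Hdac4 they were Fam168a (0.94), Eya3 (0.94), Phactr1 (0.93), Ptpn11 (0.93) and Gm14290 (0.92). For Kat2a they were AC163637.1 (0.90), Arhgap17 (0.89), Ddi2 (0.88), Ercc2 (0.87) and Abhd6 (0.86). These are the highest of all tested genes, a description that library effects enter.

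The wider machinery of acetylation was described in the SNA effect averaged over housing. Of 16 tested acetyltransferases other than the 10 genes, 1 was higher, 2 were lower and 13 were not called at an adjusted P of 0.05. Taf1, a subunit of TFIID with acetyltransferase activity, rose by 0.14 on the log2 scale. Naa60, an N-terminal acetyltransferase of the Golgi, fell by 0.23 (54.6 to 59.5 CPM in SH Sham and 45.0 to 49.5 in SH SNA). Elp3, the catalytic subunit of Elongator, fell by 0.18. Exons of Naa60 share bases with 3 other annotated genes, so its count may hold their reads. These counts stand beside 10.8% of all genes higher and 10.3% lower, 21.1% in all, so the share called was near that of all genes. Ncoa1, a nuclear receptor coactivator, was at −0.15 (adjusted P 0.0603, edgeR), as far from 0 as Taf1, and passed in 5 of 21 alternative fits. Kat5, Kat6a and Kat7 of the MYST family were not called.

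Among the 5 other zinc-dependent deacetylases, Hdac11 fell and 4 were not called, where 10.3% of all genes were lower. Hdac11, the class IV enzyme, was at 74.9, 77.8 and 80.6 CPM (lowest, middle and highest sample) in SH Sham, 60.4, 61.0 and 65.5 in SH SNA, 77.1, 81.3 and 82.5 in EE Sham and 62.4, 64.5 and 68.0 in EE SNA. The groups with SNA did not overlap with those with sham surgery. Its averaged SNA effect was −0.31 (SE 0.042, adjusted P 5.4e-05, edgeR), and EE SNA against SH SNA gave 0.062. Exons of Hdac11 share 96 and 594 bases with Gm14573 and Gm44002, noncoding genes of the opposite strand. Hdac7, of class IIa, had 0.23 (95% CI 0.031 to 0.42, adjusted P 0.0933, edgeR), Hdac6 0.11, Hdac8 0.034 and Hdac10 0.012, and none of these was called, although Hdac7 passed in 1 of 21 alternative fits. Of the 7 sirtuins, NAD-dependent deacetylases, 0 were called by edgeR, where 21.1% of all genes were called. An unadjusted P under 0.05 was found for 34.2% of all genes and for 2 of the 7 sirtuins. Of these 2, Sirt2 at 0.12 (adjusted P 0.0657, edgeR) passed in 2 of 21 alternative fits.

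In the complexes that carry class I deacetylases, 4 of 26 genes were higher and 3 lower. Sap30 of the Sin3 complex rose by 0.49, the histone demethylase gene Kdm1a of CoREST by 0.18, and the NuRD subunits Gatad2a and Mta2 by 0.19 and 0.17. Rcor2 of CoREST fell by 0.45, Mta3 of NuRD by 0.22 and Tbl1x of the NCoR complex by 0.15. Of 22 tested subunits of SAGA and ATAC, which carry Kat2a or Kat2b, Tada2b fell by 0.22 and 21 were not called. These shares stand beside 10.8% of all genes higher and 10.3% lower.

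Of 22 tested partners and kinases of class IIa deacetylases, 2 were higher, 3 were lower and 17 were not called, a share near the 21.1% of all genes called. Camk1, a calcium-dependent kinase that phosphorylates class IIa enzymes, was at 66.6, 67.1 and 74.8 CPM in SH Sham, 132, 138 and 149 in SH SNA, 67.8, 78.7 and 80.0 in EE Sham and 118, 126 and 149 in EE SNA. Every SNA sample was above every sham sample, with an averaged effect of 0.90 (SE 0.062, adjusted P 4.03e-08, edgeR). Sik1, a salt-inducible kinase, rose by 0.54. Mef2c, the transcription factor that class IIa enzymes hold repressed, fell by 0.50, from 21.5 to 25.0 CPM in SH Sham to 16.2 to 18.7 in SH SNA and from 20.5 to 28.6 in EE Sham to 15.2 to 15.8 in EE SNA. Camk2b fell by 0.30 and Camk1d by 0.15.

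Of 14 transcription factors and cofactors that bind Crebbp and Ep300, 7 were higher and 0 lower, where 10.8% of all genes were higher. The list was chosen with earlier results of these data known, so this share is no test of such factors as a class. Cited2, which binds the same domain of both coactivators as HIF1, rose by 0.88, Jun of AP-1 by 0.68 and Crem of the CREB family by 0.64. Rela, Atf1, Creb1 and Stat3 rose by 0.33, 0.25, 0.22 and 0.14. Jun also stands among the injury response genes. Of 14 readers of acetyl-lysine, Brd2 and Brpf3 rose, by 0.17 and 0.26. Of 7 genes of acetyl-CoA supply, Slc25a1, the mitochondrial citrate carrier, rose by 0.14 and Dlat of the pyruvate dehydrogenase complex fell by 0.15. The counts of these 2 lists stand beside 10.8% of all genes higher and 10.3% lower. Brpf3 and Slc25a1 lost their adjusted call in 11 and 13 of 21 alternative fits. In the averaged housing effect and in the interaction, 0 genes of these lists were called by edgeR at the adjusted threshold, as were 0 genes of the whole table, of which 737 and 423 had an unadjusted P under 0.05 and 5 and 1 passed in DESeq2.

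**Figure D5:**
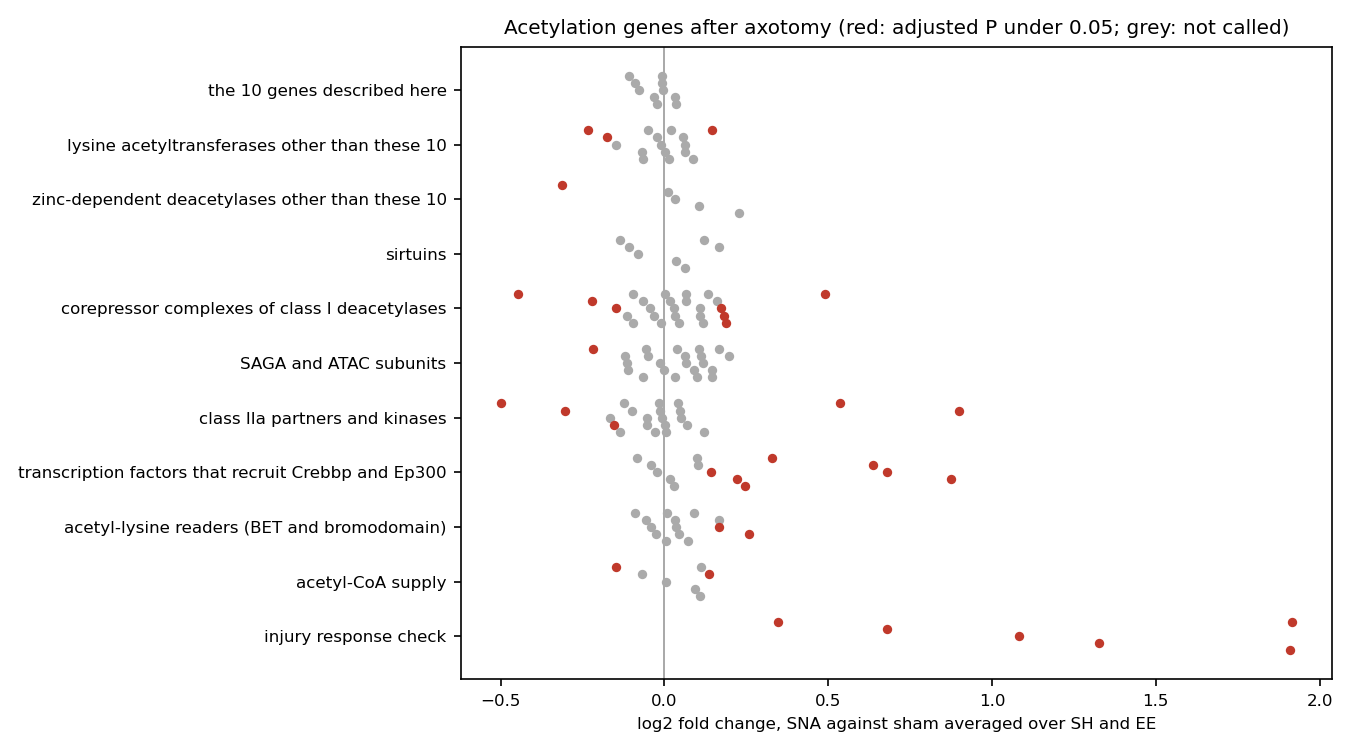
log2 fold change of SNA against sham averaged over SH and EE (x axis) for the 10 genes and for lists of genes around them (y axis), 1 point per gene; red points have an adjusted P under 0.05. The 10 genes lie between −0.11 and 0.034 with no red point, and the partners of class IIa deacetylases run from Mef2c at −0.50 to Camk1 at 0.90, with a share of red points near the 21.1% of all genes.

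Markers of cell types moved with SNA beside these values. In the averaged SNA effect, 5 of 12 sensory neuron markers were lower and 0 higher. Higher were 6 of 6 Schwann cell markers, 7 of 11 tested macrophage markers and 1 of 5 satellite glia markers. Also higher were 1 of 6 tested neutrophil, 1 of 3 lymphocyte, 1 of 5 endothelium and 2 of 6 fibroblast markers. Of 3 tested red blood cell markers, 0 were called. Over all genes, 10.8% were higher and 10.3% lower. The sensory neuron sum was 19260 to 20830 CPM in SH Sham, 17410 to 18610 in SH SNA, 18010 to 18850 in EE Sham and 17020 to 18070 in EE SNA. The macrophage sum was 92.0 to 97.6, 105 to 144, 84.6 to 97.3 and 109 to 153 CPM in the same groups. The skeletal muscle sum ran from 2.52 to 852 CPM over the 12 samples, with 852 in SH SNA replicate 2 and at most 143 in any other sample. Of the 6 muscle markers, 0 were called by edgeR at the adjusted threshold. At the unadjusted threshold 5 were higher, where 2894 of 16238 genes were higher. The part of these shifts in the values of Hdac4, Hdac11, Camk1 and the other genes above was not tested. In the averaged housing effect, 0 markers of any list were called by edgeR at the adjusted threshold. At the unadjusted threshold 3 of 12 sensory neuron markers were lower, where 333 of 16238 genes were lower. The sensory neuron sums of all SH Sham samples lay above those of all EE Sham samples, as the Kat2a values did, and their part in Kat2a was not tested.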

How the data were processed

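RNA of sciatic DRG was sequenced by the authors as paired-end reads from poly(A) libraries, in 12 samples of 4 groups, each a pool of 2 mice. The authors aligned the reads to mm10 with TopHat2 2.0.12 and Bowtie2 2.2.3 and counted them per gene with HTSeq, whose version is 0.6.0 in the submitters' processing notes. The deposited counts are whole reads per gene name, not normalized. The deposited FPKM values, scaled by the authors to the length of a gene and the size of the library, served for levels between genes and as an alternative. The authors' lines of reads that were not assigned to genes, 56.3% to 56.8% of each total, were left out.

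The 10 genes and the lists of pathway and marker genes were chosen with earlier results of these data known. edgeR 4.0.16 (R 4.3.3) gave the TMM scaling, after filterByExpr had removed genes of low counts (minimum of 10, total of 15) over the 4 groups. The 5 comparisons of 2 groups were fitted on their 6 samples, and the interaction and both averaged effects on all 12, with the two-sided quasi-likelihood F test and Benjamini-Hochberg adjustment over 16238 genes. A gene was called at an adjusted P of 0.05, or at the study's unadjusted P of 0.05 where stated. Intervals are 95% confidence intervals of the log2 fold change, with standard errors that rest on the spread between samples. Groups did not overlap where every sample of a group lay above or below every sample of the other. The scripts were tested on simulated data. P-values rest on the spread between pools of mice, not between single mice.

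Genes of the lists were named where they were among the 3 largest absolute log2 fold changes of a list in the averaged SNA effect, past the adjusted threshold and with at least 1 CPM on average. Kdm1a, Gatad2a, Mta2, Tbl1x, Camk2b, Camk1d, Rela, Atf1, Creb1, Stat3 and genes that were not called were named beyond that rule, after their values were seen. Positions are from GENCODE M21, and figures were drawn with Matplotlib 3.10.9.

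Samples of the same replicate number in EE Sham and SH Sham deviated from their group means together (r of 0.331, 0.137 and 0.111). Of the samples with different numbers, SH Sham replicate 3 and EE Sham replicate 2 had an r of 0.194, and the others there were negative. SH Sham replicate 3 and SH SNA replicate 2 reached 0.404. These values cannot decide whether the numbers pair the samples, and neither the labels nor the methods describe a pairing. The reported fits therefore treat the samples as unpaired, and the replicate block is given as an alternative. Each of the other comparisons held a same-number r below 0.1. Alternatives were the likelihood ratio test, DESeq2 1.42.0, scaling by library size, no filter, at least 10 counts in every sample, all 12 samples in one fit, the replicate block, limma 3.58.1 on log2(FPKM + 1) and log2(FPKM + 0.1), and each sample left out. Offsets for gene length were added after seeing the data.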

Additional observations from a re-analysis of the deposited data

How the results depend on the processing

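No value of the 10 genes that was called changed sign. Of 1430 alternative fits of their 80 values, 2 had an adjusted P under 0.05, both of Kat2a in EE SNA against SH Sham, at 0.0498 with scaling by library size only and 0.042 without a filter, so that 1 gene passed there. The sign changed in 97 fits, and in 1 of them the reported value was over 0.1 on the log2 scale. At the unadjusted threshold, the count of the 10 genes called in EE SNA against SH Sham fell from 2 to 1 under the likelihood ratio test, DESeq2, library size scaling, no filter, at least 10 counts in every sample, the replicate block and both FPKM scales. Leaving out samples gave 1 to 2. In the averaged housing effect the count was 0 with DESeq2, 1 without a filter, and 1 to 2 when samples were left out. In the averaged SNA effect it was 1 with library size scaling, 2 with either FPKM scale and 0 to 2 when samples were left out. For the interaction it was 1 without a filter and 0 to 1 when samples were left out, and for EE Sham against SH Sham and EE SNA against EE Sham 0 to 1, always Hdac9 without EE Sham replicate 2.

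Counts over all genes moved more, and the cause was not tested. In EE Sham against SH Sham, genes called at the adjusted threshold were 5 with the likelihood ratio test, 48 without a filter, 29 with the replicate block, 0 with library size scaling, all 12 samples in one fit, either FPKM scale or length offsets, and 0 to 2 when samples were left out. At the unadjusted threshold they were 207 with DESeq2, 887 without a filter, 847 with the block and 368 to 852 when samples were left out. In EE SNA against SH SNA they were 312 and 1096 with DESeq2 and without a filter (unadjusted), 2 and 18 (adjusted), and 0 to 7 when samples were left out. In EE SNA against EE Sham, adjusted counts were 1303 with the likelihood ratio test, 1720 without a filter, 1278 with all samples, 483 and 470 on log2(FPKM + 1) and log2(FPKM + 0.1), and 361 to 1082 when samples were left out. For SH SNA and EE SNA against SH Sham, leaving out samples gave 1207 to 1683 and 1168 to 2021 adjusted calls. For the interaction the counts were 186 and 854 with DESeq2 and without a filter (unadjusted), 1 with the likelihood ratio test and DESeq2 and 77 without a filter (adjusted), and 362 to 771 unadjusted when samples were left out. For the averaged housing effect they were 444 and 1228 (unadjusted), and 3, 5 and 128 with the likelihood ratio test, DESeq2 and no filter (adjusted).

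Among the other named genes, Brpf3 and Slc25a1 lost their adjusted call in 11 and 13 of 21 alternative fits, Sap30 in 4, Dlat in 2 and Taf1 in 1, each with the same direction. Ncoa1, Sirt2 and Hdac7, not called in the reported fit, passed in 5, 2 and 1 of the 21. These were library size scaling, no filter, length offsets and leaving out EE Sham replicate 2 or 3 for Ncoa1, the replicate block and leaving out EE Sham replicate 2 for Sirt2, and leaving out EE Sham replicate 2 for Hdac7. The replicate block changed no other call of the 10 genes than that of Kat2b in EE SNA against SH Sham (unadjusted P 0.0511).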
